A study of Mus musculus with 18 samples.

Results

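Liver RNA from NRF2 KO mice was compared between 2 days (2D) and 4 weeks (4W) after diethylnitrosamine (DEN), a liver carcinogen. The comparison holds 6 of the 18 libraries of the study, 3 from KO livers at 2D and 3 from KO livers at 4W, chosen by their labels and by no measured value. All mice had a mixed B6;129P2 background and all had received DEN, so that the study holds no untreated liver, and the KO animals carried a knockout of NRF2 (gene Nfe2l2) that the labels describe no further. The other 12 libraries, which shared the fit, came from WT mice at 2D, 4W and 36 weeks and from KO mice at 36 weeks. The labels give neither the age at DEN nor the sex of the animals, and they do not say that each library came from a separate animal, so that p-values measure the spread between samples. The 2D samples were labelled as liver tumor and the 4W samples as liver tissue, and their titles carry different code letters. Time after DEN, the age of the animal, the label and the code letter therefore cannot be told apart. Bulk RNA also does not tell fewer cells of a type from less RNA per cell.

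NRF2 is a transcription factor that KEAP1 holds back until oxidants or electrophiles release it, after which it raises genes for glutathione handling, quinone reduction and NADPH supply. DEN is activated by cytochrome P450 enzymes in hepatocytes and alkylates DNA, and damaged DNA activates p53, which raises cell cycle inhibitors and repair genes. In rodents the liver also matures after birth. It silences fetal genes such as Afp, Igf2 and H19, it turns on lipid synthesis and drug metabolism around weaning, and at puberty it acquires sex-biased expression through pulsatile growth hormone.

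Values are CPM, the read count scaled to the library's total, after TMM scaling. Log2 fold changes are given ± a value derived from the test, the absolute log2 fold change divided by the square root of its F statistic. This value stands in for a standard error and was not estimated separately. The 6 KO libraries held 16295305 to 19019594 counts, and a floor of 3 counts corresponded to 0.142 to 0.187 CPM. The first principal component of the 6 KO libraries held 67.1% of their variance and separated the times. Pearson correlations of log2 CPM across genes were 0.981 to 0.986 within 2D, 0.965 to 0.973 within 4W and 0.900 to 0.935 between the times. The 4W libraries thus differed more among themselves than the 2D libraries did. Xist was at most 0.217 CPM and the Y-linked Ddx3y at least 64.7 CPM in each of the 18 libraries. Each library therefore held RNA from male liver, although the labels do not give the sex. A WT library used only for the comparison with WT, 2D WT replicate 3, stood apart from its group, with deviations from the group mean of SD 0.595 on the log2 scale. Its stellate cell and fibroblast markers summed to 6859 CPM against 1243 and 1366.5 CPM in the other 2D WT libraries. Bile duct markers summed to 611.6 against 174.5 and 159.9 CPM, and macrophage markers to 626 against 1052 and 959 CPM. The part of this content in the comparison with WT was not tested beyond leaving out that library.

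Nfe2l2 (chromosome 2, 75675513 to 75704641, mm10) was read at 43.3, 66.3 and 67.8 CPM in the 2D KO libraries and at 54, 55.2 and 56.2 CPM in the 4W KO libraries. WT libraries gave 73.2, 70.2 and 76.2 CPM at 2D and 109, 109 and 90.03 CPM at 4W. The transcript was therefore present in KO, and since the labels do not give the deleted stretch, its count does not check them. Nqo1, a quinone reductase and a standard NRF2 target, was at 2.27, 1.56 and 1.37 CPM at 2D and 4.17, 2.12 and 2.24 CPM at 4W in KO, against 29.1, 26.3 and 14.2 CPM and 11.2, 17.5 and 16.5 CPM in WT. All 6 KO libraries were below all 6 WT libraries for Nqo1. Neither gene passed the test between the times in KO (log2 0.10 ± 0.14, adjusted p 0.666, for Nfe2l2, and log2 -0.70 ± 0.67, adjusted p 0.494, for Nqo1).

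Between the times 3605 of 14877 genes tested changed in KO, which is 24.2%, by edgeR's quasi-likelihood test at an adjusted p under 0.05. Of these, 1600 were higher at 2D (10.8%) and 2005 were lower (13.5%). Of these calls, 821 of the higher and 817 of the lower genes changed by at least 2-fold, and 103 and 99 by at least 16-fold. The 3 and 3 KO libraries did not overlap for 6969 genes (46.8%). Genes named below were chosen by their change or small p between these libraries or after their values were seen. The largest changes were also chosen by lack of overlap. Separation of the libraries for a named gene is therefore no further support. Counts for each list below are to be read beside 10.8% higher and 13.5% lower of all genes. The median log2 fold change of all genes was -0.02, where positive values mean higher at 2D. With library size alone in place of TMM the median moved to 0.18 and the split to 2727 higher and 1104 lower, so that 71.2% of calls were higher in place of 44.4%. Without 2D KO replicate 3 the counts were 1016 higher and 1162 lower, and without 4W KO replicate 1 they were 968 and 1300.

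Fetal and imprinted growth genes were higher at 2D. Of 18 tested members of the imprinted list 12 were higher and 1 was lower, with a median log2 fold change of 2.55 beside -0.02 for all genes. Igf2, the fetal insulin-like growth factor, was at 1637, 1743 and 2408 CPM at 2D and 0.436, 1.57 and 4.88 CPM at 4W. Its neighbour H19, a maternally expressed noncoding RNA, was at 6296, 6651 and 6816 CPM and 4.61, 13.5 and 15.8 CPM. Each 2D library was far above each 4W library for both genes, but lack of overlap was a condition for naming the largest changes and held for 46.8% of all genes. The log2 fold change was 9.70 ± 0.83, adjusted p 1.48e-06, for Igf2, and 9.18 ± 1.04, adjusted p 1.96e-05, for H19. They lie 72.6 kb apart on chromosome 7 (mm10), H19 at 142575529 to 142578143 and Igf2 at 142650766 to 142666816.

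The imprinted growth inhibitors moved with them. Cdkn1c, a cyclin-dependent kinase inhibitor, stood at 38.5, 35.1 and 41 CPM at 2D and 3.37, 3.31 and 4.88 CPM at 4W, a 9.9-fold difference (log2 3.31 ± 0.25, adjusted p 5.8e-07). Grb10, an adaptor that restrains insulin and IGF signalling, stood at 82.7, 83.7 and 105 CPM and 5.05, 6.83 and 12.3 CPM (log2 3.48 ± 0.27, adjusted p 7.15e-07). For both the 2D libraries lay far above the 4W libraries. Peg3, Plagl1 and Mest were called higher too (log2 3.18, 2.85 and 2.66). Dlk1, Meg3, Rian, Zim1 and Peg10 were called higher (log2 4.51, 2.24, 2.43, 3.19 and 1.38), but these calls were not stable. Dlk1 and Rian lost theirs without any one of the 6 libraries. Meg3 and Zim1 lost theirs without 2D KO replicate 1, 2D KO replicate 3, 4W KO replicate 1 or 4W KO replicate 2. Peg10 lost its call without 2D KO replicate 3 or 4W KO replicate 2. The exception was Slc38a4, an amino acid transporter, at 845, 663 and 578 CPM against 1514, 1134 and 1315 CPM (log2 -0.93 ± 0.24, adjusted p 0.00978), whose call was lost without 2D KO replicate 3 (adjusted p 0.066). The number of imprinted genes called higher was 7 without 2D KO replicate 3 and 7 without 4W KO replicate 2.

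Of 17 tested fetal and neonatal liver genes 8 were higher and 0 lower, with a median log2 fold change of 1.42. Afp, the fetal serum protein, was at 1131, 1879 and 4631 CPM at 2D and 4.17, 6.72 and 8.15 CPM at 4W. The 2D libraries spread over a wide range, but the lowest of them was far above the highest 4W library (log2 8.64 ± 0.84, adjusted p 5.09e-06). Gpc3, a cell surface proteoglycan of fetal liver, was at 55.5, 56.1 and 86.3 CPM and 1.43, 1.79 and 5.62 CPM (log2 4.48 ± 0.74, adjusted p 0.000512). Cyp3a16, a P450 of immature liver, was at 59.1, 96.6 and 88.8 CPM and 0.249, 0.163 and 0.746 CPM (log2 7.70 ± 1.11, adjusted p 0.000178), and Spink3, Bex2, Akr1c18 and Mfge8 were also called higher.

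**Figure D1:**
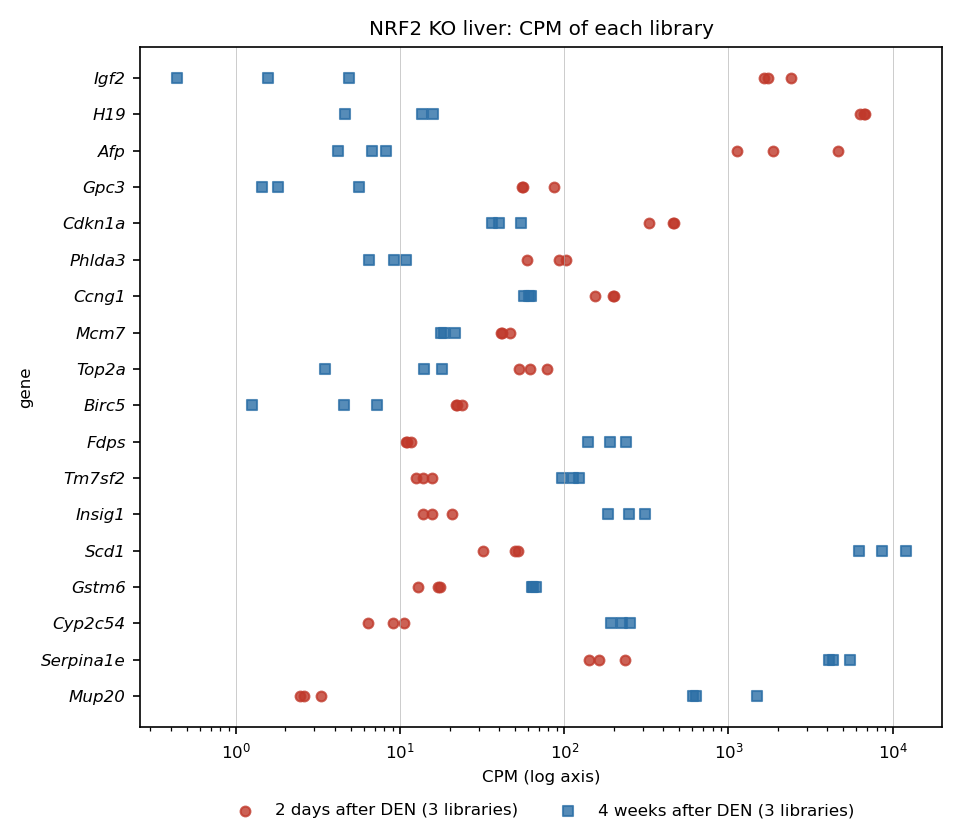
CPM of 18 named genes in each KO library on a log axis, with circles for the 3 libraries at 2 days and squares for the 3 at 4 weeks. The circles lie to the right of the squares from Igf2 down to Birc5 and to the left from Fdps down to Mup20, with no overlap for any of these genes. Lack of overlap held for 46.8% of all genes tested and was a condition for choosing some of those shown.

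Genes of the p53 response were higher at 2D as a group. Of 35 tested members 24 were higher and 2 lower, with a median log2 fold change of 1.33. Cdkn1a, the p21 cell cycle inhibitor, was at 327, 466 and 459 CPM at 2D and 36.2, 39.8 and 54.2 CPM at 4W, or 9.61-fold higher (log2 3.27 ± 0.43, adjusted p 7.25e-05). Phlda3, an inhibitor of AKT, was at 58.9, 102 and 93 CPM and 6.42, 9.17 and 10.8 CPM (log2 3.27 ± 0.44, adjusted p 9.72e-05). Ccng1, cyclin G1, was at 153, 198 and 201 CPM and 57.1, 62.7 and 61.2 CPM (log2 1.61 ± 0.23, adjusted p 0.000142). For these 3 genes, chosen by small p, each 2D library exceeded each 4W library, where 46.8% of all genes had no overlap. Other called members were Mdm2, the ubiquitin ligase of p53 (log2 1.43), Bax (log2 1.26), Btg2 (log2 2.16) and Aen, a nuclease (log2 1.88).

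Not every gene of the list went this way. Xpc, a damage sensor of nucleotide excision repair, was lower at 2D, at 16.8, 17.9 and 17.2 CPM against 27.1, 26.4 and 27.4 CPM (log2 -0.64 ± 0.10, adjusted p 0.00039), and Sesn1 was lower too (log2 -0.68 ± 0.16, adjusted p 0.00516). Trp53 itself had a log2 fold change of 0.03 and was not called, nor were Bbc3 (0.10), Gdf15 (-0.81) and Plk3 (-0.80). In WT 26 members were higher and 2 lower with a median of 1.54, and the KO minus WT difference was called for 0 of the 35 by edgeR and 0 by DESeq2, with 6 at an unadjusted p under 0.05.

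The wider DNA repair list was less uniform, with 9 of 28 members higher and 2 lower and a median of 0.22. Brca1, a factor of homologous recombination, was at 9.1, 8.95 and 11.5 CPM at 2D and 2.12, 3.2 and 4.65 CPM at 4W (log2 1.57 ± 0.27, adjusted p 0.000686). Chek1, a checkpoint kinase, was at 3.79, 4.5 and 3.97 CPM and 0.81, 0.705 and 0.976 CPM (log2 2.29 ± 0.40, adjusted p 0.000795). Atm, the kinase that responds to double-strand breaks, was lower, at 9.35, 8.06 and 7.9 CPM against 13.8, 17.5 and 16.5 CPM (log2 -0.92 ± 0.16, adjusted p 0.000825). The number lower was 1 without any one of the 6 libraries.

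Proliferation genes were higher at 2D. Of 31 tested genes of DNA replication and S phase 22 were higher and 0 lower, with a median log2 fold change of 1.38, and each leave-out of 1 library gave 22 or 23 higher. Mcm7, a subunit of the replicative helicase, was at 41.2, 41.9 and 46.7 CPM at 2D and 21.6, 18.5 and 17.8 CPM at 4W (log2 1.17 ± 0.14, adjusted p 4.41e-05). Rrm2, the ribonucleotide reductase subunit that limits DNA precursor supply, was at 41.7, 44.7 and 52.4 CPM and 4.8, 7.21 and 6.77 CPM (log2 2.88 ± 0.29, adjusted p 5.98e-06). Ccne1, cyclin E1, was at 8.74, 10.6 and 13.3 CPM and 0.312, 0.814 and 0.746 CPM (log2 4.09 ± 0.53, adjusted p 6.58e-05), the largest change of the list. The groups did not overlap for these 3 genes, chosen by small p, as for 46.8% of all genes.

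Of 32 tested G2 and mitosis genes 19 were higher and 0 lower, with a median of 2.01. Top2a, the topoisomerase of mitotic chromosomes, was at 61.5, 52.7 and 78.8 CPM at 2D and 3.49, 13.9 and 18 CPM at 4W (log2 2.44 ± 0.55, adjusted p 0.00464). Birc5, survivin, was at 23.9, 22.3 and 21.9 CPM and 1.25, 4.56 and 7.23 CPM (log2 2.38 ± 0.48, adjusted p 0.00228), and Aurkb, the kinase of the chromosomal passenger complex, was at 13.1, 12.8 and 14.9 CPM and 0.312, 3.42 and 4.02 CPM (log2 2.39 ± 0.56, adjusted p 0.00557). For all 3 genes the lowest value was that of 4W KO replicate 1, several times below the other 4W libraries. The number of mitotic genes called higher changed with single libraries: it was 11 without 2D KO replicate 3, 8 without 4W KO replicate 1, 10 without 4W KO replicate 2 and 30 without 4W KO replicate 3. In WT 7 were called higher with a median of 1.17, and the difference between KO and WT was called for 0 of the 32 by edgeR and 0 by DESeq2, with 0 at an unadjusted p under 0.05.

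Cholesterol synthesis was the list with the largest share of called members among the 39, with 22 of 26 tested members lower at 2D (84.6%, against 13.5% of all genes) and 0 higher. Its median log2 fold change was -1.97. Cells raise these genes through SREBP2, a membrane-bound transcription factor that INSIG proteins retain in the endoplasmic reticulum when sterols are plentiful, and that binds sterol response elements near the start of its targets. Fdps, farnesyl diphosphate synthase, was at 11.6, 11 and 10.9 CPM at 2D and 239, 139 and 189.5 CPM at 4W, 16.9-fold lower (log2 -4.08 ± 0.20, adjusted p 7.64e-09). Tm7sf2, a sterol reductase, was at 15.7, 12.5 and 13.8 CPM and 113, 96.7 and 122 CPM (log2 -2.98 ± 0.17, adjusted p 5.4e-08). Insig1 itself was at 20.6, 15.7 and 13.8 CPM and 311, 249 and 185 CPM (log2 -3.89 ± 0.24, adjusted p 7.98e-08). The groups were widely apart for each of the 3.

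Hmgcs1, which makes the HMG-CoA that feeds the pathway, was at 61.2, 76.5 and 75.1 CPM at 2D and 361, 257 and 351 CPM at 4W (log2 -2.19 ± 0.35, adjusted p 0.000375). Hsd17b7 and Ggps1 were not called (log2 -0.11 and -0.14). Sqle, squalene epoxidase, was at 6.32, 6.06 and 5.16 CPM and 49.6, 45 and 48.7 CPM (log2 -3.03 ± 0.27, adjusted p 1.99e-06). The difference between the KO and the WT log2 fold change, called KO minus WT, was 1.69 ± 0.37, adjusted p 0.0313, for Sqle, a smaller fall in KO, and that call was lost without any of 10 of the 12 libraries of that contrast.

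Because this list held the largest share of called members, 3 of its promoters are shown, each the 250 bases before the gene's start in the RefSeq table of build GRCm38.p6, 5′ to 3′ on the gene's strand. Shown were members with 1 window in that table that were named by the naming rule or whose window held the sterol response letters. Hmgcs1 is shown only because its window held those letters, so it is not an example of the list. Capitals mark the letters CCAAT or their reverse complement ATTGG, read by the factor NF-Y, and the sterol response element letters TCACNCCAC or GTGGNGTGA.
Insig1 (chr5:28071162-28071411, plus strand): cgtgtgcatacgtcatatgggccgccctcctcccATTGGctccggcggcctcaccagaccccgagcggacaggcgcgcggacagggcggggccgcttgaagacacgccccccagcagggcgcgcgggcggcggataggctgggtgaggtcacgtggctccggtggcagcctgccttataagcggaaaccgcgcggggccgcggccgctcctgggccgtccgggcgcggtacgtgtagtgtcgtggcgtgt
Tm7sf2 (chr19:6067851-6068100, minus strand): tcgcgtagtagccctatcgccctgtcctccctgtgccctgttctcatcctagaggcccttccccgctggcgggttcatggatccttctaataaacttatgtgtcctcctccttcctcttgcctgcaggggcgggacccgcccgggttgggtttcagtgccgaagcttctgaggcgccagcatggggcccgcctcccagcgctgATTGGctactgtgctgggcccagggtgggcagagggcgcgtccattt
Hmgcs1 (chr13:119690101-119690350, plus strand): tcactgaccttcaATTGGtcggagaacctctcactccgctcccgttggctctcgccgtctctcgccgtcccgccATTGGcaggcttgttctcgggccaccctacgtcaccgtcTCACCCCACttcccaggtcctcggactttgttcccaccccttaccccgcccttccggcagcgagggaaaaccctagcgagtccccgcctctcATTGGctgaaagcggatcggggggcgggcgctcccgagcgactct
The Hmgcs1 window held the sterol response letters once, starting 137 bases before the gene's start, and the CCAAT letters 3 times. The windows of Insig1 and Tm7sf2 held the CCAAT letters once each and the sterol response letters in this form not at all. The deposited table places these gene starts elsewhere. The Tm7sf2 window lies inside the gene as given there (6062821 to 6068373), and the Insig1 window runs past its start there (28071363). The absence of the letters therefore holds for the RefSeq windows only. Over the 21 windows found for 18 genes of the list, 1 held the sterol response letters (4.76%, against 1.05% of 32851 windows of all genes) and 17 held the CCAAT letters (81.0% against 33.8%). Among 27 windows of 26 G2 and mitosis genes 24 held the CCAAT letters (88.9%), 9 held TTTGAA (33.3% against 16%) and 5 held TTTAAA (18.5% against 12.1%), the last 2 being forms of the cell cycle homology region. Matches on either strand were counted, and they describe letters, not bound sites.

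Fatty acid synthesis was lower at 2D as well, with 14 of 22 tested members lower, 0 higher and a median log2 fold change of -1.12. Scd1, the desaturase that makes monounsaturated fatty acids, was at 49.7, 51.8 and 32 CPM at 2D and 11992, 6197 and 8570.1 CPM at 4W (log2 -7.65 ± 0.55, adjusted p 3.91e-07). Acss2, which makes acetyl-CoA from acetate, was at 12.8, 11.9 and 10.6 CPM and 168, 85.3 and 130.1 CPM (log2 -3.44 ± 0.30, adjusted p 1.93e-06). Elovl6, an elongase, was at 5.1, 15.8 and 11.9 CPM and 127, 103 and 119 CPM (log2 -3.41 ± 0.33, adjusted p 5.23e-06). The 2D and 4W libraries were far apart for all 3. Thrsp, a lipogenic regulator, stood at 3.08, 1.17 and 0.236 CPM against 82, 30.6 and 41.3 CPM (log2 -5.10 ± 0.97, adjusted p 0.00143), and Fasn, Acacb, Me1 and Mlxipl were also called lower, with log2 fold changes of -2.65, -4.03, -3.56 and -1.93. Srebf1, Dgat1, Dgat2 and Elovl2 were not called.

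Sugar and fat oxidation genes were mixed. Of 28 glycolysis genes 7 were lower and 2 higher (median -0.07). The number lower was 4 without 2D KO replicate 3 or 4W KO replicate 1, and 3 with library size alone, and the number higher was 1 without 2D KO replicate 1, 2D KO replicate 2, 2D KO replicate 3, 4W KO replicate 1 or 4W KO replicate 3, and 4 with library size alone. Ldha, lactate dehydrogenase, was higher, at 1544, 1711 and 1692 CPM at 2D against 879, 660.5 and 769.7 CPM at 4W (log2 1.10 ± 0.19, adjusted p 0.000631). Of 38 genes of fatty acid oxidation and ketogenesis 10 were lower and 2 higher (median -0.40), with Cd36, a fatty acid transporter, at 30.3, 18.1 and 29.99 CPM against 94.9, 97.6 and 104 CPM (log2 -1.92 ± 0.22, adjusted p 2.6e-05) and Fgf21, a fasting hormone, higher (log2 2.87 ± 0.61, adjusted p 0.00325). The number lower in the oxidation list was 5 without 4W KO replicate 1 and 6 without 2D KO replicate 1, 2D KO replicate 3 or 4W KO replicate 3, and the number higher 1 without 2D KO replicate 2, 4W KO replicate 1 or 4W KO replicate 2. With library size alone 5 were lower and 5 higher. Gluconeogenesis and amino acid catabolism had 7 lower and 2 higher of 23 (median -0.24), and the number higher was 1 without 2D KO replicate 1, 2D KO replicate 2, 2D KO replicate 3, 4W KO replicate 2 or 4W KO replicate 3. Gpt2, an alanine transaminase, was lower (log2 -1.49 ± 0.25, adjusted p 0.000654) and Fbp1, a gluconeogenic phosphatase, higher (log2 0.74 ± 0.18, adjusted p 0.00879). The mitochondrially encoded proteins had 6 of 12 lower and 0 higher (median -0.65), and the number lower was 3 without 2D KO replicate 3 or 4W KO replicate 1. The nuclear oxidative phosphorylation subunits had 6 of 82 higher and 2 lower (median 0.03), both shares below those of all genes, and 21 higher with library size alone. The number lower was 0 without 2D KO replicate 3 or 4W KO replicate 1 and 1 without 2D KO replicate 1, 2D KO replicate 2, 4W KO replicate 2 or 4W KO replicate 3.

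**Figure D2:**
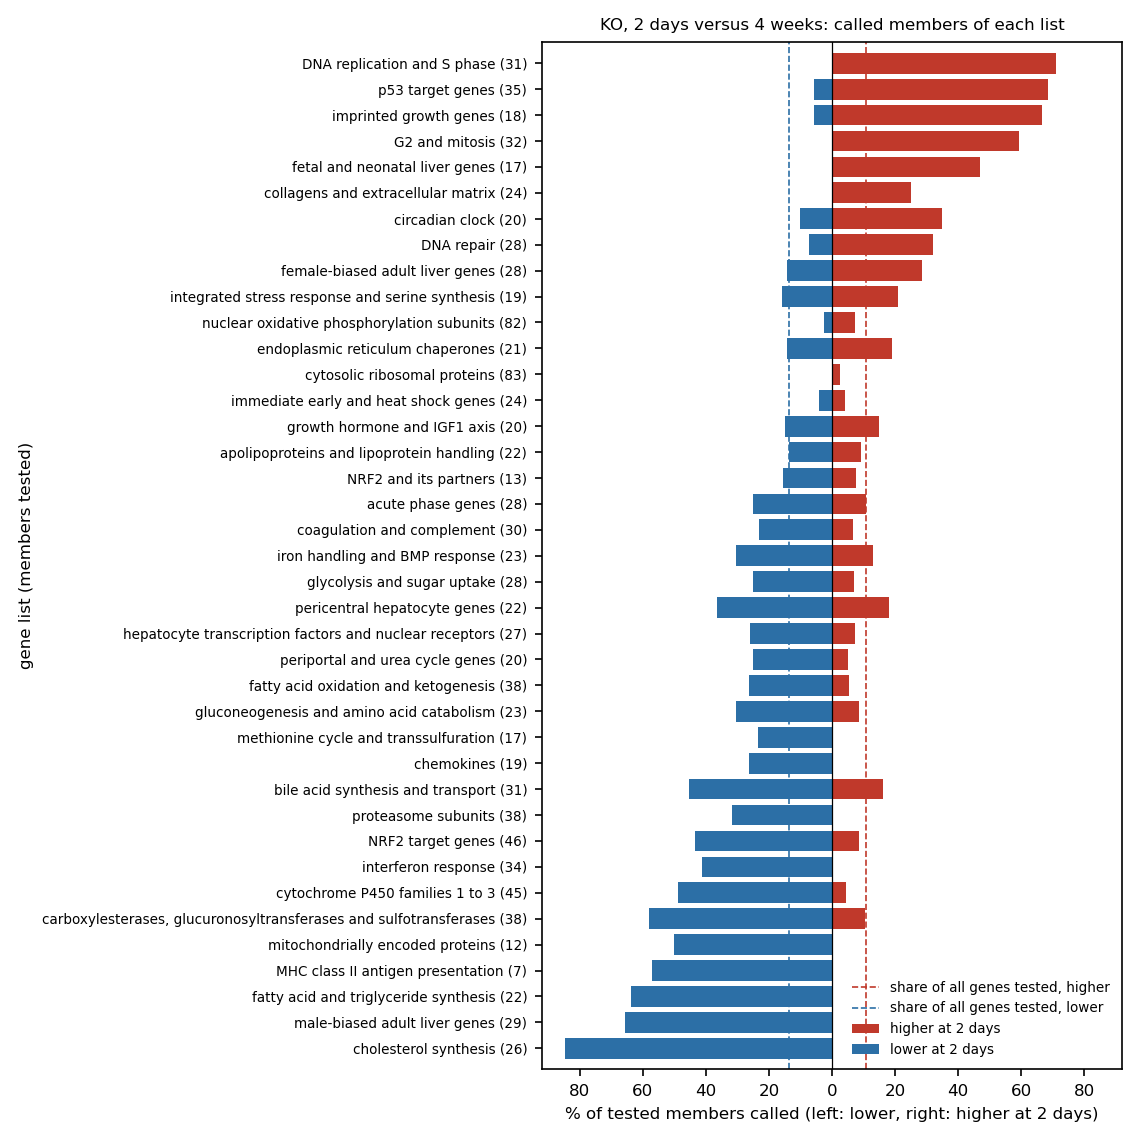
Percentage of the tested members of each of 39 gene lists that were called higher (right) or lower (left) at 2 days in KO, with the number tested in brackets and dashed lines for the shares of all genes tested, 10.8% and 13.5%. S phase, p53, imprinted and mitotic genes lie at the top, and cholesterol synthesis, male-biased genes and fatty acid synthesis at the bottom.

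Most of the drug metabolism genes called were lower at 2D. Of 45 tested cytochrome P450 genes of families 1 to 3, which oxidise drugs and steroids, 22 were lower and 2 higher, with a median of -1.07. Cyp2c38 was at 1.62, 1.61 and 0.426 CPM at 2D and 80.01, 49.2 and 58.8 CPM at 4W (log2 -5.70 ± 0.84, adjusted p 0.000208), Cyp2c54 at 8.99, 10.5 and 6.39 CPM and 223, 191 and 251 CPM (log2 -4.69 ± 0.70, adjusted p 0.000218), and Cyp2d22 at 112, 106 and 95.8 CPM and 285, 238 and 238 CPM (log2 -1.28 ± 0.15, adjusted p 2.32e-05). Cyp2e1, the P450 best known for activating nitrosamines, was also lower (log2 -1.40 ± 0.48, adjusted p 0.0439), though its call was lost without any one of the 6 libraries (adjusted p 0.0645 to 0.141). The 2 genes that went the other way were Cyp3a16, given above, and Cyp3a44, at 69.3, 112 and 99.2 CPM at 2D and 1.99, 5.48 and 7.92 CPM at 4W (log2 4.18 ± 0.48, adjusted p 2.29e-05). Members of these families are close in sequence, so that reads may have been assigned to the wrong one, and the same holds for the Ces, Ugt, Sult and Mup genes below.

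Carboxylesterases, glucuronosyltransferases and sulfotransferases had 22 of 38 members lower, 4 higher and a median of -1.19, or -1.12 with the 3 genes at 0 in a group set to their bounds. Ces3b, an esterase, was at 0.152, 0.111 and 0.236 CPM at 2D and 144, 190.1 and 159 CPM at 4W (log2 -9.86 ± 0.86, adjusted p 1.76e-06), and Ugt2a3 at 49.1, 59 and 35 CPM and 237, 194 and 207 CPM (log2 -2.16 ± 0.23, adjusted p 1.33e-05). Sulfotransferases of the 2a group were split. Sult2a1, which sulfates steroids and bile acids, was at 154, 115 and 65.6 CPM and 0.187, 0.217 and 0.402 CPM (log2 8.66 ± 0.77, adjusted p 1.99e-06), and Sult2a3 was at 1.42, 2.89 and 1.18 CPM against 0 counts at 4W, at least 10.5-fold higher by the floor of 3 counts per library. Sult2a2 was called higher too (log2 6.80 ± 1.31, adjusted p 0.00154), while Sult2a7 was called lower (log2 -6.03 ± 1.09, adjusted p 0.00101). Ces2e was also higher, at 837, 1244 and 1100.4 CPM against 218, 204 and 254 CPM (log2 2.24 ± 0.21, adjusted p 4.39e-06).

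Genes that are higher in adult males were among the most reduced. Of 29 tested members 19 were lower and 0 higher, with a median log2 fold change of -5.59, or -3.95 with the 7 members that had 0 counts in a group set to their bounds. The number lower was 16 to 20 with 1 KO library left out and 10 to 22 over all alternative fits. Mup3 and Mup20, major urinary proteins that carry pheromones, were at 2.93, 1.67 and 0.993 and 2.58, 3.28 and 2.46 CPM at 2D and at 7636, 4790.1 and 3956 and 1498, 632 and 606 CPM at 4W, with log2 fold changes of -11.52 ± 1.15, adjusted p 5.94e-06 and -8.36 ± 1.06, adjusted p 5.42e-05. Serpina1e, an antitrypsin paralog of mice, was at 142, 236 and 162 CPM and 5479, 4355 and 4113 CPM (log2 -4.69 ± 0.53, adjusted p 1.86e-05). No 2D library came near a 4W library for these genes, and lack of overlap was a condition for naming Mup3 among the largest changes.

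Others were close to absent at 2D. Cyp4a12a, a fatty acid hydroxylase of male liver, had 3 counts in the 3 libraries at 2D and 235, 63.9 and 71 CPM at 4W, where the ratio of 4W to 2D was 2337 (95% counting interval 799 to 11337). Cyp4a12b and Elovl3 had 1 count each at 2D, against 65.1, 31.9 and 31.3 CPM and 63.1, 11.2 and 18.7 CPM at 4W. Mup7 had 0 counts at 2D and 44.7, 11 and 1.55 CPM at 4W, at least 124-fold lower at 2D, though the 4W values differed widely and its call (adjusted p 0.0242) was lost without 2D KO replicate 1 (0.0627), 2D KO replicate 2 (0.0611), 2D KO replicate 3 (0.0736) or 4W KO replicate 1 (0.0876). Mup10 and Slc22a28, a transporter, were at 0 counts at 2D and at least 37.8-fold and 40.2-fold lower. Of 28 tested female-biased genes 8 were higher and 4 lower, with a median of 0.46, shares of 28.6% and 14.3% beside 10.8% and 13.5% of all genes. The number higher was 5 without 2D KO replicate 1, 4W KO replicate 1 or 4W KO replicate 2 and the number lower 2 without 4W KO replicate 3. In the growth hormone axis Ghr, the receptor, was at 234, 188 and 195 CPM against 580.3, 538 and 548 CPM (log2 -1.43 ± 0.31, adjusted p 0.0033), and Igfbp2, an IGF carrier, at 1644, 1802 and 2075 CPM against 340.0, 513 and 674 CPM (log2 1.85 ± 0.36, adjusted p 0.00154). In that list 3 of 20 were higher and 3 lower (median -0.04), shares of 15.0% each, near the 10.8% and 13.5% of all genes. The number lower was 1 without 4W KO replicate 1.

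Many genes known as NRF2 targets were lower at 2D in KO liver. Of 46 tested members 20 were lower at 2D and 4 higher, with a median of -0.58. These are shares of 43.5% and 8.7% beside 13.5% and 10.8% of all genes. Gstm6, a glutathione transferase, was at 12.8, 17.4 and 16.9 CPM at 2D and 67.1, 63.8 and 64.6 CPM at 4W (log2 -2.05 ± 0.14, adjusted p 1.76e-07). Ftl1, ferritin light chain, was at 851, 921 and 783 CPM and 2268, 2081 and 2115 CPM (log2 -1.34 ± 0.17, adjusted p 6.79e-05), and Me1, malic enzyme, at 5.05, 10.1 and 5.49 CPM and 126, 46.7 and 70.7 CPM (log2 -3.56 ± 0.47, adjusted p 7.78e-05). These 3 genes, chosen by small p, separated the groups fully, as did 46.8% of all genes. Gclc, the rate-limiting enzyme of glutathione synthesis, was at 152, 201 and 184 CPM and 492, 348 and 398 CPM (log2 -1.20 ± 0.31, adjusted p 0.0107), and its call was lost without 4W KO replicate 1 (adjusted p 0.0507).

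The 4 members higher at 2D, a share (8.7%) below that of all genes (10.8%), were Ephx1, Hmox1, Cbr1 and G6pdx. Ephx1, epoxide hydrolase, was at 296, 477 and 416 CPM at 2D and 215, 187 and 224 CPM at 4W (log2 0.93 ± 0.22, adjusted p 0.00621), and Hmox1, heme oxygenase, at 95, 55.2 and 84.8 CPM and 25.5, 42.4 and 17.8 CPM (log2 1.46 ± 0.42, adjusted p 0.0185). The call of Hmox1 was lost without 2D KO replicate 1 (adjusted p 0.0642), 2D KO replicate 3 (0.0553), 4W KO replicate 1 (0.0741) or 4W KO replicate 3 (0.0733). The number of targets called higher was 1 without 2D KO replicate 1, 4W KO replicate 1 or 4W KO replicate 3 and 2 without 2D KO replicate 3. In WT 3 targets were higher and 27 lower, and the KO minus WT difference was called for 1 of the 46 by edgeR and 3 by DESeq2, with 11 at an unadjusted p under 0.05 by edgeR. Among NRF2 and its partners 1 of 13 was higher and 2 were lower, shares of 7.69% and 15.4%, near the 10.8% and 13.5% of all genes. Sqstm1, a selective autophagy receptor that binds KEAP1, was at 171, 229 and 183 CPM against 465, 351 and 443 CPM (log2 -1.11 ± 0.15, adjusted p 9.7e-05). Keap1 was not called (log2 -0.27 ± 0.11, adjusted p 0.09). In this list of partners, with a median of -0.27, the number higher was 0 without 2D KO replicate 3 or 4W KO replicate 3 and the number lower 1 without 4W KO replicate 1.

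Bile acid genes had 14 of 31 members lower and 5 higher, with a median of -0.61. Baat, which conjugates bile acids, was at 25.4, 20.8 and 12.9 CPM at 2D and 227, 173 and 174 CPM at 4W (log2 -3.28 ± 0.32, adjusted p 4.92e-06), and Abcc3, a basolateral exporter, at 58.1, 43.7 and 41.5 CPM and 193, 183 and 217 CPM (log2 -2.05 ± 0.33, adjusted p 0.0004). Abcg5 and Abcg8, which together form the canalicular sterol transporter, were higher, at 266, 188 and 166 and 262, 188 and 149 CPM against 83.1, 57.2 and 51.2 and 99.5, 51.7 and 53.8 CPM (log2 1.69 ± 0.25, adjusted p 0.000198 and 1.55 ± 0.27, adjusted p 0.00079). Both subunits were above all 4W libraries in each 2D library. The number of bile acid genes higher was 3 without 4W KO replicate 1.

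Zonation genes were split. Of 22 pericentral genes 8 were lower and 4 higher (median -0.48), with Slc1a2, a glutamate transporter, at 4.14, 3.0 and 2.46 CPM at 2D against 114, 112 and 100.2 CPM at 4W (log2 -5.08 ± 0.72, adjusted p 0.000147) and Oat at 124, 56.2 and 68.5 CPM against 656, 520.3 and 580.5 CPM (log2 -2.82 ± 0.56, adjusted p 0.00204). Slc13a3, a dicarboxylate transporter, was higher, at 145, 173 and 213 CPM against 26.4, 22.9 and 22.7 CPM (log2 2.88 ± 0.40, adjusted p 0.000126). The number of pericentral genes lower was 5 without 2D KO replicate 2, 2D KO replicate 3 or 4W KO replicate 1 and the number higher 2 without 2D KO replicate 3. Of 20 periportal and urea cycle genes 5 were lower and 1 higher (median -0.16), with Cyp2f2 at 36.9, 28.7 and 15.1 CPM against 589, 433 and 516 CPM (log2 -4.25 ± 0.77, adjusted p 0.000984). The number lower was 3 without 2D KO replicate 2, 2D KO replicate 3 or 4W KO replicate 1, and the number higher 0 without 2D KO replicate 1, 4W KO replicate 1 or 4W KO replicate 2 and 2 without 2D KO replicate 3. Of 27 hepatocyte transcription factors and nuclear receptors 7 were lower and 2 higher (median -0.22), with the number lower 4 without 2D KO replicate 3 and the number higher 0 without 2D KO replicate 1, 2D KO replicate 2, 2D KO replicate 3 or 4W KO replicate 2 and 1 without 4W KO replicate 1 or 4W KO replicate 3. With library size alone 4 were lower. Zbtb20 and Zhx2, repressors of Afp in mouse liver, were at 51.9, 52.8 and 46.6 and 7.88, 9.89 and 10.1 CPM at 2D against 113, 126 and 128 and 20.4, 18.3 and 17.5 CPM at 4W (log2 -1.28 ± 0.16, adjusted p 6.58e-05 and -1.01 ± 0.16, adjusted p 0.000316).

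Of 22 apolipoprotein and lipoprotein genes 3 were lower and 2 higher (median 0.02), shares of 13.6% and 9.09% beside 13.5% and 10.8% of all genes. The number higher was 1 without 2D KO replicate 1, 4W KO replicate 2 or 4W KO replicate 3, and 6 with library size alone. Lpl, lipoprotein lipase, was higher, at 922, 667 and 738 CPM at 2D against 127, 179 and 204 CPM at 4W (log2 2.19 ± 0.29, adjusted p 8.78e-05) and Apoc3, its inhibitor, was lower, at 229, 244 and 129.6 CPM against 1203, 791 and 931 CPM (log2 -2.28 ± 0.28, adjusted p 4.37e-05). Of 30 coagulation and complement genes 7 were lower and 2 higher (median -0.13), shares of 23.3% and 6.67% beside 13.5% and 10.8% of all genes. The number higher was 1 without 2D KO replicate 1, 2D KO replicate 2, 2D KO replicate 3, 4W KO replicate 1 or 4W KO replicate 2, and 7 with library size alone. Lower genes included C6, a component of the membrane attack complex, at 19.6, 14.9 and 16.6 CPM against 228, 263 and 198 CPM (log2 -3.75 ± 0.63, adjusted p 0.000563). Of 28 acute phase genes 7 were lower and 3 higher (median -0.07): Orm1, orosomucoid, was at 29.3, 6.5 and 4.02 CPM against 951, 903 and 512 CPM (log2 -5.89 ± 0.74, adjusted p 5.44e-05), while Serpina3n was at 2367, 2103 and 2309 CPM against 645, 518 and 516 CPM (log2 2.01 ± 0.34, adjusted p 0.000541). The number of acute phase genes lower was 3 without 2D KO replicate 2, 2D KO replicate 3 or 4W KO replicate 1 and 4 without 4W KO replicate 2, and 7 were higher with library size alone. Of 23 genes of iron handling and BMP response 7 were lower and 3 higher (median -0.29), and the number lower was 4 without 2D KO replicate 2, 2D KO replicate 3, 4W KO replicate 1 or 4W KO replicate 2. With library size alone 5 of them were higher. Hamp2, a hepcidin paralog, was at 3.89, 0.667 and 0.378 CPM against 132, 88.1 and 108 CPM (log2 -6.05 ± 1.03, adjusted p 0.000623), and Tfrc, the transferrin receptor, at 187, 165 and 145 CPM against 19.3, 42.6 and 20.8 CPM (log2 2.59 ± 0.38, adjusted p 0.000223).

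Interferon, MHC class II and chemokine genes that were called were all lower at 2D. Of 34 interferon response genes 14 were lower and 0 higher, with a median of -0.76, and the number lower was 8 without 2D KO replicate 2 or 2D KO replicate 3. Parp14 was at 36, 26.5 and 28 CPM at 2D and 52.2, 60.4 and 56.1 CPM at 4W (log2 -0.90 ± 0.14, adjusted p 0.000354), and Bst2, tetherin, at 119.8, 79.96 and 69.3 CPM and 188, 189 and 201 CPM (log2 -1.10 ± 0.19, adjusted p 0.000766). Of 7 MHC class II genes 4 were lower and 0 higher (median -1.50), with Cd74, the invariant chain, at 75.7, 43.9 and 44.9 CPM and 160.0, 219.7 and 135 CPM (log2 -1.65 ± 0.36, adjusted p 0.00378). Of 19 chemokines 5 were lower and 0 higher (median -1.19), with Cxcl9, which draws T cells, at 6.37, 4.83 and 3.26 CPM and 28.1, 61.9 and 27.4 CPM (log2 -3.02 ± 0.51, adjusted p 0.000563). The highest 4W value of Cd74 and of Cxcl9 was that of 4W KO replicate 2, whose summed macrophage markers were 1460 CPM against 593 and 615 CPM in the other 4W KO libraries and 687 to 995 CPM at 2D. Without that library 4 MHC class II genes and 4 chemokines were called lower, and 10 interferon genes.

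Collagen and matrix genes were called higher for 6 of 24 and lower for 0, with a median of 0.78. Postn, periostin, was at 90.05, 81.3 and 128 CPM at 2D and 25.3, 28.1 and 44.6 CPM at 4W (log2 1.61 ± 0.30, adjusted p 0.00123), and Col4a2, a basement membrane collagen, at 166, 133 and 171 CPM and 48, 68.7 and 96.7 CPM (log2 1.14 ± 0.23, adjusted p 0.00241). Col1a1, the main fibrillar collagen, was at 102, 103 and 164 CPM and 30.7, 36.3 and 277 CPM, with a log2 fold change of 0.10 ± 0.93, adjusted p 0.953. Its groups overlapped through 4W KO replicate 3, which also had the highest sum over 17 stellate cell and fibroblast markers, 2153 CPM against 585 and 754 CPM in the other 4W KO libraries and 1396 to 2015.5 CPM at 2D. Without 4W KO replicate 3, 13 matrix genes were called higher. The part of that library's stromal content in the result beyond this count was not tested.

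**Figure D3:**
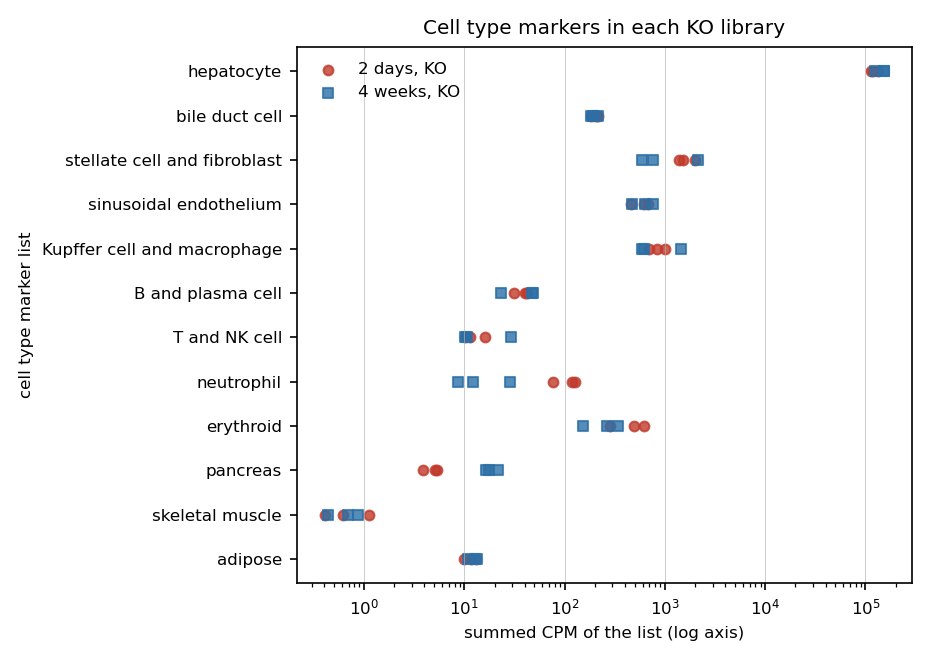
Summed CPM of 12 cell type marker lists in each KO library on a log axis, circles for 2 days and squares for 4 weeks. One 4-week library lies apart from the other 2 for stellate cell and fibroblast markers (2153 CPM) and another for Kupffer cell and macrophage markers (1460 CPM).

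Markers of other cell types differed as follows. The 12 hepatocyte markers summed to 114249 to 133585 CPM at 2D and 124371 to 153325 CPM at 4W, and Alb, Hnf4a and Cps1 were present in each library. Bile duct markers summed to 183 to 214 CPM at 2D and 183 to 216 CPM at 4W. Neutrophil markers summed to 75.8 to 128 CPM at 2D and 8.61 to 28.7 CPM at 4W, with 3 of 13 tested called higher; their part in any result was not tested. Most of that sum was Ltf, lactoferrin, at 39.2, 109 and 88.6 CPM at 2D and 0, 0.217 and 0 CPM at 4W (log2 9.88 ± 1.17, adjusted p 6.05e-05), while S100a8 and S100a9, 2 abundant neutrophil proteins, had log2 fold changes of 1.52 ± 0.65, adjusted p 0.1 and 1.06 ± 0.63, adjusted p 0.246. Pancreas markers summed to 3.84 to 5.30 CPM at 2D and 16.5 to 21.9 CPM at 4W. Of these 10 markers 7 or 8 had 0 counts in each KO library. Only 2 were tested, and 1 of them, Cela1, was called lower (log2 -2.27, adjusted p 0.000176), so that this sum does not describe pancreas content. Erythroid markers summed to 280.4 to 625 CPM and 152.5 to 341 CPM, sinusoidal endothelium to 459 to 684 CPM and 472 to 759.9 CPM, B and plasma cell to 31.6 to 42.4 CPM and 23 to 48.2 CPM, and T and NK cell to 10.1 to 16.2 CPM and 10 to 29 CPM, so that these overlapped between the times.

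The genes with the largest changes under the naming rule included others outside these lists. Krt20, an epithelial keratin, was at 5.76, 13.2 and 12.9 CPM at 2D and 0 counts at 4W, at least 61-fold higher. Mep1a, a secreted and membrane protease, was at 7.78, 5.28 and 11.1 CPM and 0 counts, at least 46.2-fold higher. Ckmt1, a mitochondrial creatine kinase, was at 10.3, 19.6 and 17 CPM against 1 count at 4W, with a ratio of 807 (95% counting interval 144 to 31913). All 3 were absent or nearly so from the 4W KO libraries at these depths.

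Endoplasmic reticulum chaperones fold secreted proteins and rise in the unfolded protein response. In KO, of 21 endoplasmic reticulum chaperones and sensors 4 were higher and 3 lower, with a median of -0.07. Hspa5, the main luminal chaperone BiP, was at 738, 750.1 and 874 CPM at 2D and 531, 452 and 476 CPM at 4W (log2 0.69 ± 0.23, adjusted p 0.0388), and Hyou1, its partner, at 123, 129 and 145 CPM and 78.9, 80.5 and 79.4 CPM (log2 0.73 ± 0.22, adjusted p 0.0211). Ern1, the IRE1 sensor, was lower, at 34.6, 42.3 and 35.5 CPM and 76.2, 79.7 and 70.1 CPM (log2 -1.01 ± 0.16, adjusted p 0.00038). The number called higher was 0 without 2D KO replicate 3 and 1 without 4W KO replicate 1, 4W KO replicate 2 or 4W KO replicate 3 and 2 without 2D KO replicate 1 or 2D KO replicate 2, and the number lower 1 without 2D KO replicate 2 or 2D KO replicate 3, and 1 with library size alone. The call of Hspa5 was lost without any one of the 6 libraries (0.0642 to 0.126). The call of Hyou1 was lost without 2D KO replicate 3 (adjusted p 0.076), 4W KO replicate 1 (0.0671), 4W KO replicate 2 (0.0532) or 4W KO replicate 3 (0.0515).

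The same genes changed more in WT, and the difference was tested in the same fit. All 21 were lower at 2D in WT, with a median of -1.45, and 11 of the 21 had a called KO minus WT difference, all positive, against 1.01% of all genes. Of these 11, 7 kept that call whichever 1 of the 12 libraries was left out. DESeq2 called the difference for 13, and 18 had an unadjusted p under 0.05 by edgeR. Hyou1 stood at 91, 75.6 and 119 CPM at 2D and 343, 328 and 499.8 CPM at 4W in WT, and its difference was 2.77 ± 0.31, adjusted p 0.000574. Creld2, a secreted ER stress protein, was at 26.1, 32.6 and 40.2 and 14.4, 14.1 and 12.2 CPM in KO and at 19.4, 17.2 and 30.6 and 62.1, 75.4 and 145 CPM in WT, with a difference of 3.35 ± 0.48, adjusted p 0.00311. Syvn1, the ubiquitin ligase of ER-associated degradation, was at 57.8, 68.2 and 70.8 and 58.1, 61.8 and 56 CPM in KO and at 45.9, 52.2 and 49.6 and 175, 198 and 265 CPM in WT, with a difference of 2.27 ± 0.23, adjusted p 0.000179. In each case the WT libraries at 4W were the highest of the 4 groups.

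**Figure D4:**
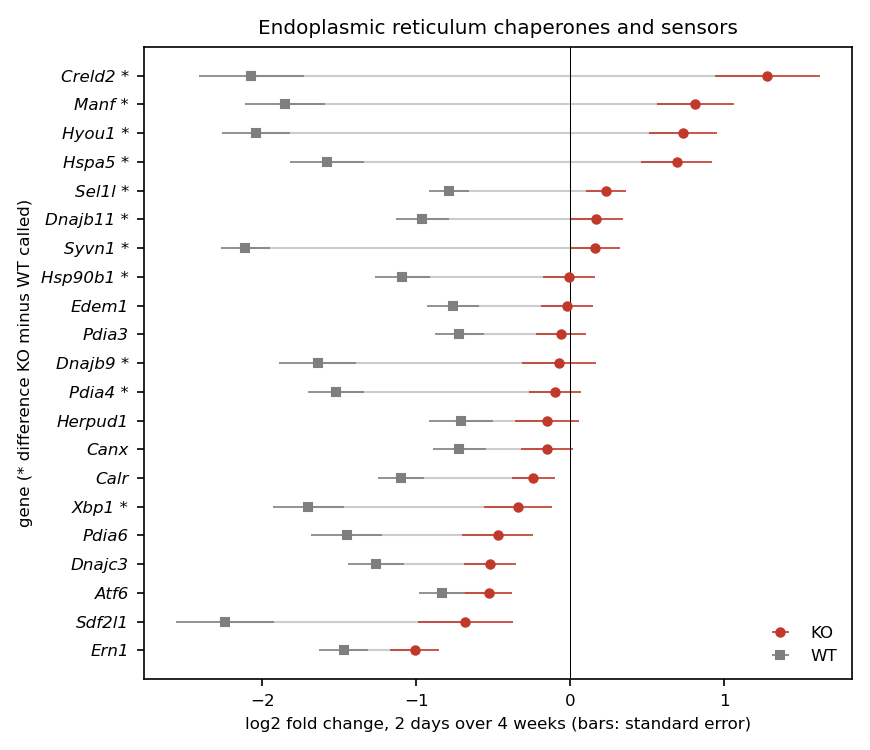
Log2 fold change between 2 days and 4 weeks for 21 endoplasmic reticulum chaperones and sensors, circles for KO and squares for WT, with a star where the KO minus WT difference was called. Bars, labelled standard error, are the ± value derived from the F statistic of the test. The WT squares are all left of 0 with a median of -1.45, and the KO circles lie around 0 with a median of -0.07.

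Heat shock genes showed the same contrast. Of 24 immediate early and heat shock genes 1 was higher and 1 lower in KO (4.17% each, beside 10.8% and 13.5% of all genes), against 3 and 9 in WT. A called positive difference was found for 7, and for 5 of them whichever library was left out. DESeq2 called 9, and 10 had an unadjusted p under 0.05 by edgeR. The KO median was 0.17 and the WT median -0.43. The single higher gene, Fos, kept its call without any one of the 6 KO libraries (adjusted p 0.00389 to 0.0373). The number higher was 2 without 2D KO replicate 1. The single lower call was not stable, and the number lower was 0 without 2D KO replicate 1, 2D KO replicate 3 or 4W KO replicate 1. With library size alone 4 were higher and 0 lower. Hsph1, a cytosolic cochaperone, was at 24.8, 30.1 and 32.6 CPM at 2D and 28.4, 31.3 and 23.8 CPM at 4W in KO and at 10.1, 6.91 and 20.2 and 103, 111 and 138 CPM in WT (difference 3.31 ± 0.48, adjusted p 0.00311). Fos, an immediate early transcription factor, was higher at 2D in KO, at 5.81, 12.3 and 12.6 CPM against 3.05, 2.06 and 4.94 CPM (log2 1.61 ± 0.39, adjusted p 0.00745). Interferon genes were lower for 31 of 34 in WT with a median of -1.95, and the difference was called, positive, for 5, and for 2 of them whichever library was left out. DESeq2 called the difference for 12 of the 34, and 24 had an unadjusted p under 0.05 by edgeR. Dhx58, a viral RNA sensor, was at 5.21, 4.11 and 3.26 and 9.1, 11 and 10.8 CPM in KO and at 2.11, 1.65 and 2.64 and 18.4, 23.5 and 16.8 CPM in WT (difference 1.89 ± 0.31, adjusted p 0.00725).

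Over all genes, WT had 2761 genes higher at 2D (18.6%) and 2845 lower (19.1%), and KO shared 1045 of the higher genes (65.3% of the KO calls, 37.8% of the WT calls) and 1447 of the lower genes (72.2% and 50.9%). The KO minus WT difference was positive for 150 genes (1.01%) and negative for 49 (0.329%). Of the 150, 88 were lower at 2D in WT and not called in KO, and of the 49, 34 were higher at 2D in WT and not called in KO. Without 2D WT replicate 3, the library that stood apart, the counts were 342 and 189. Leaving out the other 11 libraries in turn gave 66 to 127 positive and 14 to 45 negative.

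Other genes with a called difference included Igfbp1, an IGF carrier raised by fasting, at 757, 896 and 1011 CPM at 2D and 302, 209 and 459.6 CPM at 4W in KO and at 1668, 2968 and 1013 and 57.1, 14.5 and 20.2 CPM in WT (difference -4.49 ± 0.92, adjusted p 0.0241). Its KO change was not called (log2 1.46 ± 0.63, adjusted p 0.108), and its difference was lost without any of 7 of the 12 libraries. Vldlr, the VLDL receptor, was lower at 2D in KO and higher in WT, at 9.55, 10.2 and 10.7 and 21.4, 19.96 and 24.6 CPM in KO and at 24.9, 20.1 and 22.4 and 6.08, 7.98 and 7.94 CPM in WT (difference -2.73 ± 0.52, adjusted p 0.0159). The KO call of Vldlr (log2 -1.11 ± 0.36, adjusted p 0.0354) was lost without any one of the 6 KO libraries, and its difference kept its call in each leave-out. Foxa1, a pioneer factor of liver, was lower at 2D in both genotypes, at 10.8, 12.2 and 9.46 and 22.8, 24.6 and 19.4 CPM in KO and at 9.25, 5.96 and 7.7 and 52.9, 44.8 and 42.3 CPM in WT (difference 1.57 ± 0.22, adjusted p 0.00311). Tsku, a secreted protein of the liver, was higher at 2D in KO, at 14.7, 13.8 and 15 CPM against 3.12, 3.42 and 2.35 CPM (log2 2.29 ± 0.50, adjusted p 0.00396), with 68.2, 63 and 33.6 and 52.2, 139 and 146 CPM in WT (difference 3.32 ± 0.67, adjusted p 0.0221). All 6 KO libraries were below all 6 WT libraries for Tsku, and its difference was lost without 4W KO replicate 3 (adjusted p 0.0682), 4W WT replicate 2 (0.0543) or 4W WT replicate 3 (0.0637).

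**Figure D5:**
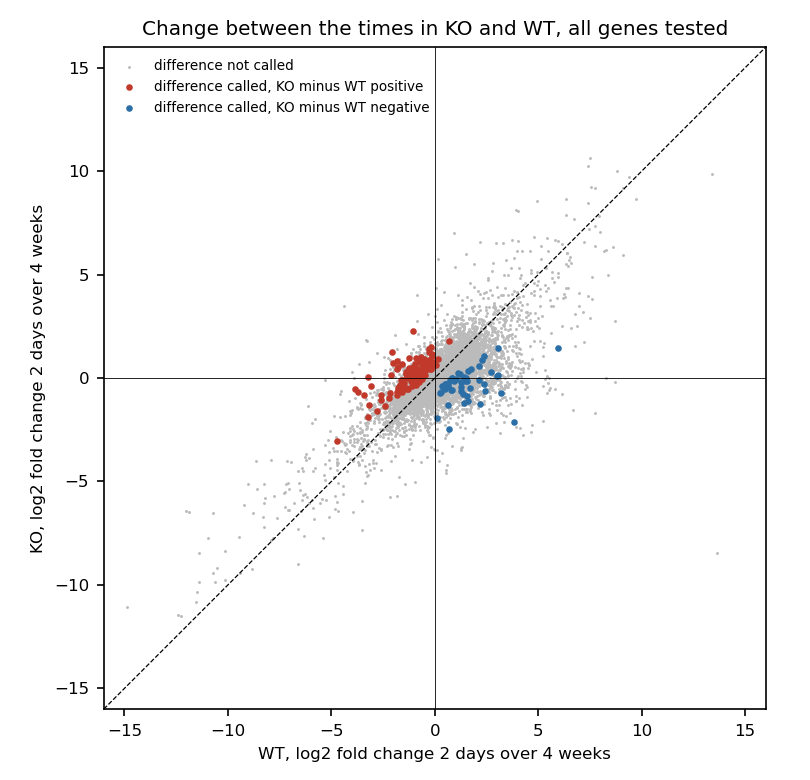
Log2 fold change between 2 days and 4 weeks in KO (vertical) and WT (horizontal) for the 14877 genes tested, with the 150 positive and 49 negative called differences in colour and a dashed line of equal change. Most genes follow the line, and the positive differences lie above it, mostly where WT is below 0.

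Among the remaining lists the clock genes had 7 of 20 members higher and 2 lower (median 0.21), with the number higher 4 without 2D KO replicate 1. Nr1d1, a clock repressor, was at 6.11, 10.4 and 6.86 CPM at 2D and 55.6, 77.3 and 44 CPM at 4W (log2 -2.92 ± 0.31, adjusted p 1.28e-05), and Per3 and Wee1 were higher (log2 2.19 ± 0.42, adjusted p 0.00143 and 1.73 ± 0.26, adjusted p 0.000233). The labels give no hour of collection, so that time of day was not tested. Integrated stress response and serine synthesis genes had 4 of 19 higher and 3 lower (median 0.04), shares of 21.1% and 15.8% beside 10.8% and 13.5% of all genes. Psat1, a serine synthesis enzyme, was at 8.24, 9.11 and 11 CPM against 0.81, 1.41 and 1.67 CPM (log2 2.85 ± 0.48, adjusted p 0.000604). In that list the number higher was 1 without 2D KO replicate 3 or 4W KO replicate 1 and 2 without 2D KO replicate 1, 2D KO replicate 2 or 4W KO replicate 3, and the number lower 0 without 2D KO replicate 1 and 1 without 2D KO replicate 3, 4W KO replicate 1, 4W KO replicate 2 or 4W KO replicate 3, and 0 with library size alone. Proteasome subunits had 12 of 38 lower and 0 higher with a median of -0.20, but 3 lower with library size alone, 6 without 2D KO replicate 2 or 4W KO replicate 1 and 7 without 2D KO replicate 3. Cytosolic ribosomal proteins had 2 of 83 higher and 0 lower (median 0.13), but 0 without any one of the 6 libraries and 18 with library size alone. The methionine cycle list had 4 of 17 lower and 0 higher (median -0.22), and 0 without 2D KO replicate 2, 2D KO replicate 3 or 4W KO replicate 1 and 1 without 4W KO replicate 2 or 4W KO replicate 3, and 1 with library size alone.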

How the data were processed

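The deposited table holds whole-number read counts per gene, and a column of gene length of another unit that no test used. Per the submitters' processing notes, the authors' tools were STAR 2.5, HTSeq and DESeq2 on mm10, with roles not given; whether strand was used in counting is not given in the sources used here, so that a gene and an overlapping antisense partner cannot be told apart. Of 35275 genes 11853 had no count, and 27 names had turned into dates. Gene coordinates are those of the deposited table, and 34490 of its gene IDs were found in GENCODE M21.

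Counts were filtered with filterByExpr, scaled by TMM and tested with edgeR 4.0.16 (R 4.3.3), using the quasi-likelihood test over all 18 libraries with 12 residual degrees of freedom, contrasts for KO, WT and their difference, and Benjamini-Hochberg adjusted p over all 14877 genes tested at 0.05. DESeq2 1.42.0 and limma 3.58.1 were alternatives. Intervals (95%) and the floor of 3 counts cover counting error only. An exact permutation test of 3 against 3 cannot give a two-sided p below 0.1, so none was used. Counts were also simulated with the spread fitted to these data and 1 mean per gene in all groups. Only 100 well-counted genes were changed 2-fold and 100 changed 4-fold, in the 2D KO libraries. Of these, 61 and 84 were recovered in the KO contrast, and 3.97% of calls were of unchanged genes. In the difference these were 28, 73 and 7.34%. The real KO contrast had 24.2% of genes called and means that differed between groups, so these rates do not describe it.

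The members and gene lists were chosen with earlier results of these data known. Named genes were Nfe2l2 and Nqo1, the 10 largest called changes in each direction, the 3 called members with the smallest p in each direction of each list, and the 5 largest called differences in each direction. Largest changes also needed an average log2 CPM of at least 1, an established gene name and, between the times, libraries that did not overlap. Other members given with values were chosen after their values were seen. Replicate numbers did not pair the samples. A few genes are not reported here.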

Additional observations from a re-analysis of the deposited data

Results flagged for a closer look

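For 16 named genes the change between 2D and 4W differed between KO and WT by edgeR's test of the difference itself. The values are log2 fold changes in KO minus those in WT. Larger 2D to 4W ratios in KO were found for the chaperone genes Creld2 (3.35), Hyou1 (2.77), Manf (2.66) and Hsph1 (3.31), for the interferon genes Dhx58 (1.89) and Oas3 (3.04), and for Foxa1 (1.57), Rnf43 (1.30), Per2 (1.71), Selenbp2 (3.33) and Tsku (3.32). Smaller ratios in KO were found for Vldlr (-2.73), Igfbp1 (-4.49), Zc3h6 (-3.90), Tff3 (-3.19) and Nipal1 (-2.93). With each of the 12 libraries of that contrast left out in turn, Foxa1, Dhx58, Creld2, Hyou1, Manf, Vldlr, Hsph1 and Zc3h6 kept the call, and the other 8 lost it at least once. The WT arm holds the 2D replicate that stood apart from its group, and all 16 kept the call without that library.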

How the results depend on the processing

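Beside 1600 genes higher and 2005 lower at 2D in KO, library size alone gave 2727 and 1104, and a change of at least 2-fold was met by 821 and 817. Leaving out 1 library gave 968 to 1372 higher and 1162 to 1643 lower. The replicate block gave 1613 and 1993, and 146 and 48 for the difference; same-numbered libraries correlated at 0.0644, -0.112 and 0.179. Beside 150 positive and 49 negative differences, DESeq2 gave 391 and 217, the 12 libraries alone 279 and 92, library size alone 79 positive, a 2-fold minimum 96 positive, and leaving out 1 library 66 to 342 and 14 to 189. In KO, Hsph1 ranged from -0.01 to 0.17 and Nipal1 from -0.24 to 0.68 (log2) with 1 library left out, both changing sign and neither called in the main test. Of the other named genes 13 lost their KO call with library size alone, 15 with limma-voom and 23 to 33 with 1 library left out. The cause was not tested. With 3 libraries per group, small changes may be missed, and time after DEN cannot be told apart from age or the labels' code letter.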
